A study of Mus musculus with 58 samples.

Results

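Pou5f1, Sox2, Fgf5, Otx2, Pou3f1, Lin28a and Lin28b are 7 of the 22556 genes counted in this series of chromatin-associated RNA sequencing (ChrRNA-seq) libraries from mouse embryonic stem (ES) cells. They were chosen by name as core and formative pluripotency genes, not by a rule on their values, but with earlier results of these data known. They were followed in ES cells at day 0 and day 1 and under neural progenitor (NPC) differentiation at day 3 and day 6. 6 of the 7 had counts, and Sox2 was at 0 in 58 of 58 libraries. The study asked how the SPOC domain of SPEN and the Polycomb pathway contribute to silencing by Xist, and these autosomal genes report on the state of the cells in which silencing was measured. ChrRNA-seq reads RNA still held on chromatin, so the values are weighted towards nascent, intron-containing transcripts.

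All lines derive from a female 129S x Cast hybrid ES line in which the Xist promoter of the 129S allele (called Dom in the allelic files) is replaced by a TetOn promoter, so that doxycycline at 1 µg/mL switches Xist on. The 58 libraries form 28 groups, 26 of 2 libraries and 2 of 3. WT is that parental line, with NPC libraries only. SPOC carries a mutated SPOC domain of Spen, in clones C11, D9 and H1, of which C11 has ES libraries only. PCGF35 carries the FKBP12 degron on PCGF3 and PCGF5, and PCGF35_SPOC (clones F10 and F6) adds the SPOC mutation to it. Both were grown untreated (ctrl) or with dTAG-13, labelled as 100 uM, from 12 h before doxycycline. Each of these treatments is counted as an arm, while every other line is 1 arm. The 6 arms with ES libraries give 12 pairs of ES day 0 and NPC libraries. F10, F6 and both PCGF35 replicates enter these pairs under each treatment, so the arms are not independent lines. DelPID lacks the B/C repeat (PID region) of Xist and has NPC libraries only, and DelPID_SPOC (clones A8 and G3) carries, by its library titles, the SPOC mutation as well. ES libraries were taken before doxycycline (day 0) or after 1 day of it, in medium with serum and LIF on feeder cells that were pre-plated off. NPC libraries were taken after 3 or 6 days in N2B27 medium, always with doxycycline, so the change of medium and the presence of Xist RNA cannot be told apart between ES day 0 and NPC. In the mutant lines a replicate is 1 clone. In the other lines nothing in the labels ties a replicate to a separate derivation, so p-values measure the spread between these libraries.

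Pou5f1 (OCT4, a POU-domain factor) and Sox2 (an HMG-box factor) bind DNA as partners and hold cells pluripotent both before and after implantation. As cells leave the naive state they pass through a formative state, the stage of the early epiblast, in which OTX2 (a bicoid-type homeodomain factor) and POU3F1 (OCT6) redirect OCT4 to other enhancers and the growth factor Fgf5 is switched on. LIN28A and LIN28B are RNA-binding proteins that block maturation of let-7 microRNAs. Lin28a and Lin28b are known for their expression in pluripotent and early progenitor cells and for their decline as tissues mature.

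The 4 members whose means rose from ES day 0 to NPC were Fgf5, Pou3f1, Lin28a and Lin28b. RefSeq promoter windows, from 250 bases before to 50 after a transcript start, were given for 6 of the 7 members and for none of the Pou3f1 transcripts. The 250 bases before the start of Fgf5, Lin28a and Lin28b are shown because these are the members that rose and have a window. Each sequence runs 5′ to 3′ on the strand of the gene in GRCm38.p6, and capitals mark matches on either strand to the SOX core ACAAT, which does not overlap the other motifs searched in these 3 windows. Fgf5 is on the plus strand (chr5:98253934-98254183), and Lin28a (chr4:134018817-134019066) and Lin28b (chr10:45470202-45470451) are on the minus strand.
Fgf5: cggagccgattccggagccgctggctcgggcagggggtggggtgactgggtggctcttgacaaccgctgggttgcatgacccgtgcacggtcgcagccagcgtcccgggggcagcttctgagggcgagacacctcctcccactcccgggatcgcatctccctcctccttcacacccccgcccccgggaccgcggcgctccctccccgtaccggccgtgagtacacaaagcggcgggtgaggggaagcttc
Lin28a: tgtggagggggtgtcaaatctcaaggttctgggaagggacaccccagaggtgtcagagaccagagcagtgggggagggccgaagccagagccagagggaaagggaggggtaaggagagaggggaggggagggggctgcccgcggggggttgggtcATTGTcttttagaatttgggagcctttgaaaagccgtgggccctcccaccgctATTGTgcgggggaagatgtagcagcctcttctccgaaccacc
Lin28b: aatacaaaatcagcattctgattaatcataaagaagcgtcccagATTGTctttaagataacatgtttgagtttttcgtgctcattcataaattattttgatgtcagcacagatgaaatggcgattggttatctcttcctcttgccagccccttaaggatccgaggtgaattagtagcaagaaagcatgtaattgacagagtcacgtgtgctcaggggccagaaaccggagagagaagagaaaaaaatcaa
The 300-base windows were also searched on both strands for the POU octamer ATTTGCAT and the bicoid-type core TAATCC. Lin28a held 2 SOX cores, both on the reverse strand, Lin28b held 1, and Fgf5 held none. Windows of Otx2 and Pou5f1, whose mean changes from ES day 0 were not called with all libraries, held the SOX core as well, and that of Sox2 did not. None of the members' windows held the octamer, which 1.74% of the 32851 windows in the table hold. The SOX core was in 31.0% of all windows and the bicoid-type core in 7.06%, the latter in 1 of the 4 Otx2 windows and in 1 of the 2 Pou5f1 windows. A match describes letters in a window and is not a binding site.

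The libraries held 2292261 to 30005305 fragments in genes, and the first DelPID replicates at NPC day 3 and NPC day 6 were the 2 shallowest, with at most 6372321. Levels are given as CPM, the count divided by the TMM-scaled library size and put on a common scale of 1000000 fragments. Pairs of replicates were further apart than counting noise allows, with a chi-square of 11.5 to 137.6 per degree of freedom. The NPC label was checked against markers. At NPC day 6, Sox1 was at 0, in a locus where another gene on the same strand spans it, and the medians of Hes5 and Fabp7 were 0.116 and 0.102 CPM. Nes, an intermediate filament gene of neural progenitors, had a median of 42.0 CPM at NPC day 6 against 18.7 at ES day 0, while Nanog had 25.8 against 53.8. The NPC libraries are therefore named by their medium and day. In bulk RNA, fewer cells of a type and less RNA per cell cannot be told apart, and this holds for every value given here. Clone F10 of PCGF35_SPOC stood apart from clone F6 in most members, and results that rest on it are given with and without it. The clones also differ in their chromosomes by the paper's supplement. F6 held XO cells and was sub-cloned before sequencing. In NPC samples of the second PCGF35_SPOC clone, labelled G3 in its legend, an allelic skew was read as loss of the Cast X in some cells. The paper lists only F6 and F10 for this line and shows the sub-cloned F6 in the other figure. By that list the skewed clone is F10. Whether the skew bears on the levels of the members was not tested. The second DelPID_SPOC clone, called G in the supplement, is described as tetraploid.

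Pou5f1 RNA was present at every stage and did not fall on average from ES to NPC conditions. The gene lies on chromosome 17 (mm10 chr17:35506031-35510777, plus strand). Its level at ES day 0 ran from 40.0 to 75.1 CPM with a median of 46.2 over 13 libraries. At ES day 1 it ran from 39.7 to 53.1 CPM (median 45.8). Both ES stages occupy the same range except for the first replicates of PCGF35_ctrl and PCGF35_dTAG and SPOC clones C11 and D9 at day 0, which are the 4 highest. At NPC day 3 the level of Pou5f1 ran from 34.5 to 86.9 CPM (median 59.0, 16 libraries), and at NPC day 6 from 23.6 to 86.5 CPM (median 63.5). The lowest NPC day 6 value belonged to clone F10 with dTAG-13 and the highest to DelPID_SPOC clone A8.

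The mean log2 fold change of Pou5f1 from ES day 0 to NPC day 3 was 0.28 (SE 0.12, 95% interval 0.03 to 0.53), which missed the threshold in edgeR's quasi-likelihood test (adjusted p = 0.0531). It was higher at NPC day 3 in 10 of the 12 pairs of libraries of the same clone or replicate number, with a median fold of 1.36. In 4 of the 6 arms with ES libraries all NPC day 3 values were above all ES day 0 values, and PCGF35_ctrl and PCGF35_dTAG overlapped. Such separation was looked at in the members only, so no share over all genes stands beside it here or below. When the clone or number was added to the model as a block, edgeR gave an adjusted p of 0.0133 for this change and of 0.0365 for that from ES day 0 to NPC day 6, against 0.0786 without it. With the block 64.7% and 67.0% of all genes passed. The call for NPC day 3 was gained also without SPOC clone C11 (adjusted p = 0.0429), without all libraries of F10 (0.0267), and with only the libraries of the contrast in the fit (0.00651). Of single libraries, leaving out the first PCGF35_ctrl replicate at ES day 0 (0.0401), the first PCGF35_dTAG replicate at ES day 0 (0.0239) or clone D9 at ES day 0 (0.0448) gained it. The change from ES day 0 to NPC day 6 was 0.25 (SE 0.12). It was called without F10, at 0.42 with an adjusted p of 0.00233, and without 1 library in 4 cases. These were the first PCGF35_ctrl replicate at ES day 0 (adjusted p = 0.0460), the first PCGF35_dTAG replicate at ES day 0 (0.0274), F10 ctrl at NPC day 6 (0.0198) and F10 with dTAG-13 at NPC day 6 (0.00530). The direction was upward under every one of the 32 alternatives run for each of these comparisons.

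Sox2 could not be measured. Its single exon (mm10 chr3:34650004-34652460, plus strand) lies inside Sox2ot, a longer non-coding gene of the same strand (chr3:34560380-34677993), and of the 397 genes whose span lies inside another gene of the same strand, 391 (98.5%) were at 0 in all libraries, against 5.36% of the other genes. featureCounts by default leaves out fragments that overlap more than 1 gene, a setting that the methods of the study do not state. A count of 0 in 58 of 58 libraries is therefore not read as absence of Sox2 RNA, and no level, limit or fold is given. Sox2ot itself had median levels of 51.2 CPM at ES day 0, 54.2 at ES day 1, 34.0 at NPC day 3 and 29.7 at NPC day 6. It fell by 0.51 on the log2 scale from ES day 0 to NPC day 3 (SE 0.15, edgeR adjusted p = 0.00353). Fragments of Sox2ot outside the Sox2 exon are what this value counts.

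**Figure D1:**
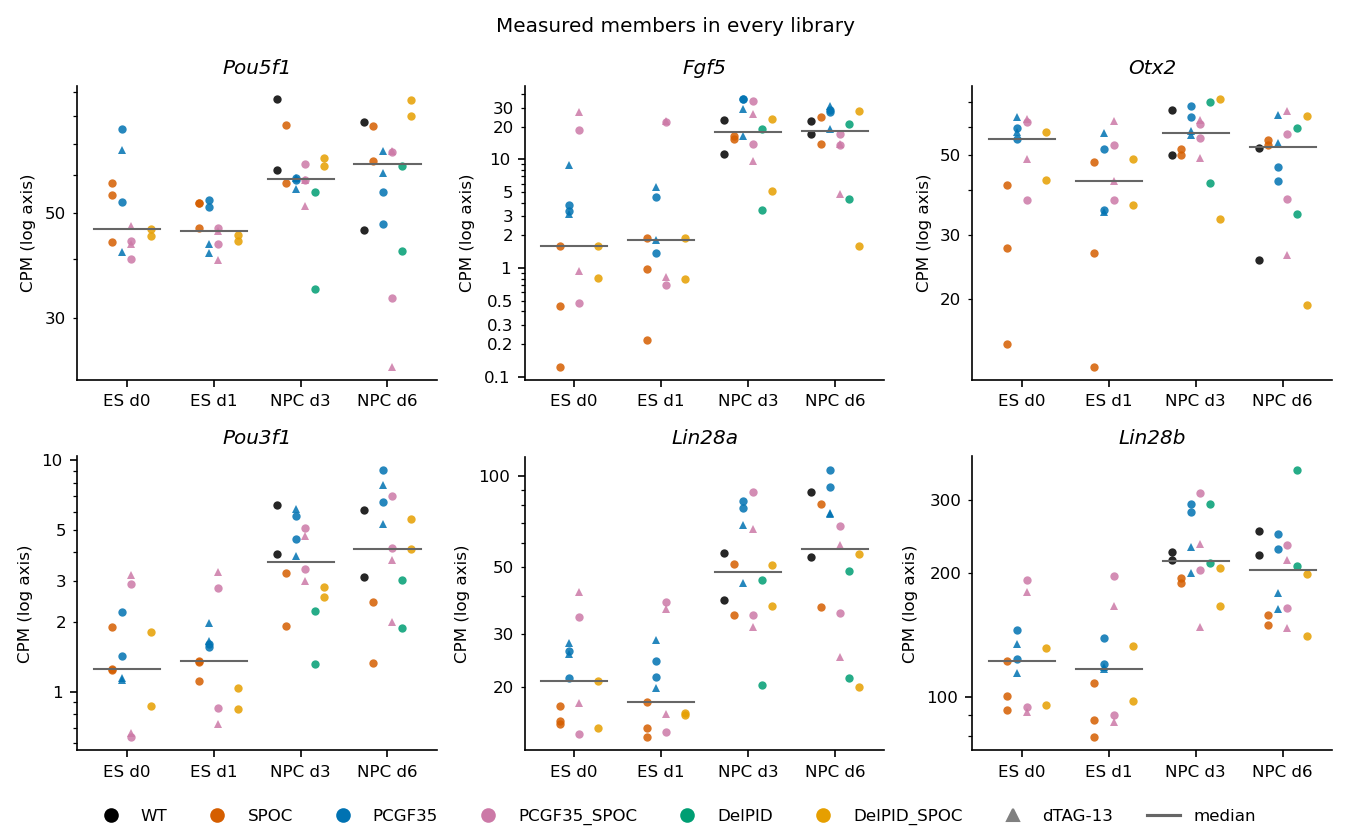
Level of the 6 members with counts in each of the 58 libraries, as CPM on a log axis, by stage (ES day 0, ES day 1, NPC day 3, NPC day 6), with 1 point per library, coloured by line, triangles for dTAG-13 and a bar at the median. Fgf5 spans from 0.124 to 27.2 CPM at ES day 0 and from 1.60 to 31.1 CPM at NPC day 6, while the medians of Pou5f1 are 46.2 and 63.5 CPM.

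Fgf5, the secreted growth factor used as a marker of the post-implantation epiblast, had the widest range of the members in ES cells and the largest mean rise in NPC conditions. It lies on chromosome 5 (mm10 chr5:98254183-98277033, plus strand). At ES day 0 its level ran from 0.124 to 27.2 CPM (median 1.60), and at ES day 1 from 0.216 to 22.7 CPM (median 1.81). The lowest library at both days was SPOC clone D9, with 2 and 5 fragments, and the highest was F10 with dTAG-13, with 501 and 380. At NPC day 3 the level ran from 3.46 to 35.7 CPM (median 17.8) and at NPC day 6 from 1.60 to 31.1 CPM (median 18.2).

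The single arms show where that rise was large. In SPOC, Fgf5 was at 0.446, 0.124 and 1.60 CPM in clones C11, D9 and H1 at ES day 0, and at 15.4 and 16.3 CPM in D9 and H1 at NPC day 3. In PCGF35_ctrl it was at 3.33 and 3.78 CPM at ES day 0 and at 35.7 CPM in both replicates at NPC day 3. These arms did not overlap between the stages, nor did PCGF35_dTAG and DelPID_SPOC. In both PCGF35_SPOC arms the stages overlapped, because F10 was already at 18.5 and 27.2 CPM at ES day 0. Averaged over the 6 arms, the log2 fold change was 2.53 from ES day 0 to NPC day 3 (SE 0.54, edgeR adjusted p = 0.000177) and 2.27 to NPC day 6 (SE 0.55, adjusted p = 0.000609).

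The rise of Fgf5 was seen in 11 of the 12 pairs at NPC day 3, the exception being F10 with dTAG-13 at 0.969 times its ES day 0 level, and in 10 of the 12 pairs at NPC day 6. Its size depended on F10. The fold from ES day 0 was 5.79 at NPC day 3 and 4.83 at NPC day 6 with all libraries, and 11.9 and 13.3 without that clone. Leaving out the 1 library of F10 ctrl at ES day 0 gave 9.38 and 7.91, and leaving out F10 with dTAG-13 at ES day 0 gave 8.99 and 7.58. Without DelPID_SPOC clone A8 at NPC day 6, the log2 fold change to NPC day 6 was 1.75 (adjusted p = 0.0143). By arm, the log2 fold change to NPC day 3 ran from 0.37 in PCGF35_SPOC_dTAG to 4.48 in SPOC, where alone among the 6 arms it passed the test in that arm.

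Otx2, the homeodomain factor of the formative state, showed no called change of its mean level between the stages. It lies on chromosome 14 (mm10 chr14:48657676-48667644, minus strand). The level ran from 15.0 to 63.7 CPM at ES day 0 (median 55.6), from 13.02 to 62.3 at ES day 1 (median 42.3), from 33.3 to 71.4 at NPC day 3 (median 57.6) and from 19.2 to 66.4 at NPC day 6 (median 52.8). SPOC clone D9 was the lowest ES library at both days, and C11 was next at 27.6 and 26.8 CPM, while H1 of the same line was at 41.4 and 48.0 CPM. The mean log2 fold change from ES day 0 was 0.21 at NPC day 3 (95% interval −0.18 to 0.61, edgeR adjusted p = 0.362) and −0.01 at NPC day 6 (−0.41 to 0.39, adjusted p = 0.979). In pairs, Otx2 was higher at NPC day 3 in 8 of 12, with a median fold of 1.04. D9 had the largest of these folds, 3.32, from its low level in ES cells.

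Pou3f1 was the member with the fewest counts, 6 to 110 fragments per library, and it rose in NPC conditions. It lies on chromosome 4 (mm10 chr4:124657645-124660655, plus strand). Its level ran from 0.638 to 3.20 CPM at ES day 0 (median 1.25) and from 0.728 to 3.28 CPM at ES day 1 (median 1.36). It ran from 1.32 to 6.39 CPM at NPC day 3 (median 3.63) and from 1.34 to 9.09 CPM at NPC day 6 (median 4.15). The highest ES values at both days were those of F10 and the lowest those of F6, the other clone of the same line. The log2 fold change from ES day 0 was 1.33 at NPC day 3 (SE 0.24, edgeR adjusted p = 1.58e-05) and 1.53 at NPC day 6 (SE 0.24, adjusted p = 2.06e-06). Pou3f1 was higher at NPC day 3 in 12 of 12 pairs, with folds of 1.43 to 5.35, and at NPC day 6 in 11 of 12. Without F10 the log2 fold change was 1.67 at NPC day 3 and 2.13 at NPC day 6, the latter a fold of 4.39 against 2.90 with all libraries.

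Lin28a and Lin28b both rose in NPC conditions, and whether their folds differ was not tested. Lin28a lies on chromosome 4 (mm10 chr4:134003329-134018816, minus strand) and Lin28b on chromosome 10 (mm10 chr10:45376618-45470201, minus strand). The level of Lin28a ran from 14.0 to 41.2 CPM at ES day 0 (median 21.0), from 13.7 to 38.3 at ES day 1 (median 17.8), from 20.4 to 88.7 at NPC day 3 (median 48.0) and from 20.1 to 104.6 at NPC day 6 (median 57.2). That of Lin28b ran from 91.6 to 191.7 CPM at ES day 0 (median 121.8), from 79.8 to 195.8 at ES day 1 (median 116.7), from 147.4 to 311.2 at NPC day 3 (median 212.8) and from 140.3 to 355.1 at NPC day 6 (median 203.0). For both genes the highest ES library at both days belonged to F10. The highest Lin28b level of all, 355.1 CPM, came from the first DelPID replicate at NPC day 6, 1 of the 2 shallow libraries.

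From ES day 0 to NPC day 3 the log2 fold change was 1.28 for Lin28a (SE 0.22, edgeR adjusted p = 8.18e-06) and 0.80 for Lin28b (SE 0.14, adjusted p = 7.29e-06). To NPC day 6 it was 1.36 for Lin28a (SE 0.22, adjusted p = 3.15e-06) and 0.55 for Lin28b (SE 0.14, adjusted p = 0.000795). Both were higher in 12 of 12 pairs at each NPC day. In 5 of the 6 arms every NPC day 3 library was above every ES day 0 library for Lin28a, for Lin28b and for Pou3f1. The share of all genes that separate in this way was not counted, and 56.4% of all genes tested passed in this comparison. The fold in pairs at NPC day 3 ran from 1.57 to 3.86 for Lin28a and from 1.31 to 2.28 for Lin28b.

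Read against the transcriptome, 4 of the 6 measured members passed the test from ES day 0 to NPC day 3 and from ES day 0 to NPC day 6, all of them upward. 56.4% of the 16227 genes tested passed at NPC day 3, 26.8% upward and 29.6% downward, and 59.5% at NPC day 6, 29.8% upward. The median log2 fold change over all genes tested was −0.02 and 0.01, and over the 6 members 1.04 and 0.95. Counted in either direction, 4 of 6 is near the share of all genes that passed. Without F10, 5 of the 6 passed in each comparison, Pou5f1 being the addition, where 54.7% and 57.0% of the 16475 genes tested in that fit passed.

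**Figure D2:**
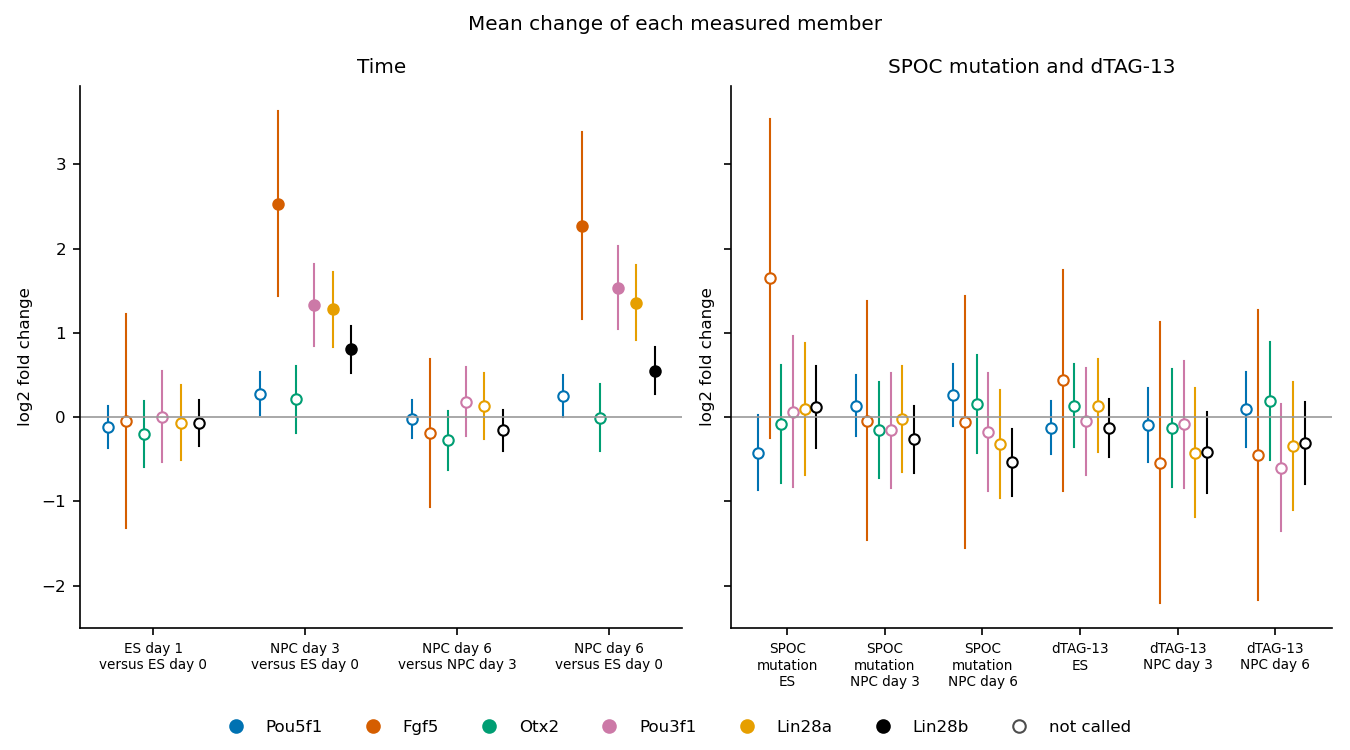
Mean log2 fold change of each measured member, with bars for the 95% interval, for the comparisons of stage, of SPOC mutation and of dTAG-13, filled where edgeR's adjusted p was under 0.05. Fgf5, Pou3f1, Lin28a and Lin28b lie above 0 from ES day 0 to NPC day 3 (2.53, 1.33, 1.28 and 0.80) and to NPC day 6, and the points of all other comparisons are open.

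Per kilobase of gene span, the order of median levels was the same at ES day 0 and at NPC day 6. At ES day 0 it was Pou5f1 at 9.73 CPM per kb, Otx2 at 5.57, Lin28a at 1.36, Lin28b at 1.30, Pou3f1 at 0.416 and Fgf5 at 0.0700. At NPC day 6 it was Pou5f1 at 13.4 CPM per kb, Otx2 at 5.30, Lin28a at 3.69, Lin28b at 2.17, Pou3f1 at 1.38 and Fgf5 at 0.794. Lin28a and Lin28b differ at ES day 0 by less than their spread over libraries. The length used is that of the whole transcribed span with introns, as in the authors' counting. These counts mix intronic and exonic reads, so the scale compares different genes only roughly. The paper scaled levels by length only in mRNA-seq data, which held few intronic reads.

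After 1 day of doxycycline in ES medium no change of the 6 members was called. edgeR called 0 of 6, with 0 of 6 at an unadjusted p under 0.05, and DESeq2 called 0 of 6, while 0.117% of all genes passed. The widest 95% interval of a log2 fold change was that of Fgf5, −1.32 to 1.22, and the narrowest that of Pou5f1, −0.37 to 0.13. Changes inside these intervals are not excluded.

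From NPC day 3 to NPC day 6 edgeR called 0 of the 6 members (0 of 6 at an unadjusted p under 0.05, and 0 of 6 by DESeq2), against 21.2% of all genes. The log2 fold changes were −0.02 for Pou5f1, −0.19 for Fgf5, −0.28 for Otx2, 0.18 for Pou3f1, 0.13 for Lin28a and −0.16 for Lin28b. Lin28b was lower at day 6 in 13 of the 16 pairs, with a median fold of 0.865. With the block for clone or number, that change of Lin28b, −0.16 (SE 0.05), was called with an adjusted p of 0.00930, against 0.367 without it. The block also raised the share of all genes that passed from 21.2% to 34.8% (5643 of 16227), so this call is read against that share. In F10 with dTAG-13 the fold from day 3 to day 6 was the lowest of all 16 pairs for Pou5f1 (0.458), Fgf5 (0.183), Otx2 (0.423) and Pou3f1 (0.429).

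The 2 clones of PCGF35_SPOC held different levels of the formative members already in ES medium. In clone F10, over ctrl and dTAG-13 and both ES days, Fgf5 was at 18.5, 27.2, 21.9 and 22.7 CPM, and in clone F6 it was at 0.479, 0.945, 0.702 and 0.833 CPM. Lin28b was at 191.7, 179.3, 195.8 and 165.9 CPM in F10 and at 94.1, 91.6, 90.2 and 86.8 CPM in F6. Lin28a was at 34.1, 41.2, 38.3 and 36.3 CPM in F10 and at 14.0, 17.7, 14.3 and 16.3 CPM in F6. Pou3f1 ran from 2.80 to 3.28 CPM in F10 and from 0.638 to 0.852 CPM in F6. Otx2 ran from 53.4 to 62.9 CPM in F10 and from 37.5 to 48.9 CPM in F6. For these 5 genes the clones did not overlap in ES cells. The share of all genes without overlap was not counted. Over all genes compared, F10 and F6 differed by a chi-square of 60.9 to 68.4 per degree of freedom in the ES groups. Pou5f1 did overlap, at 39.7 to 46.8 CPM in F10 and 40.0 to 46.4 CPM in F6. These are values of 2 clones and carry no test, since the clones are the replicates of the line. At ES day 1 the summed level of the 15 naive genes was lowest in F10 with dTAG-13, at 1582 CPM against a median of 2139. At ES day 0 it was lowest in SPOC clone H1, at 1578 CPM. Whether the F10 cultures held differentiating cells was not tested.

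At NPC day 6 the clones stood in another order. Pou5f1 was at 33.0 and 23.6 CPM in F10 (ctrl and dTAG-13) and at 67.4 and 67.5 CPM in F6. Otx2 was at 37.8 and 26.5 CPM in F10 and at 57.3 and 66.4 CPM in F6. Fgf5 was at 13.7 and 4.83 CPM in F10 and at 17.2 and 13.8 CPM in F6. Lin28a and Lin28b stayed higher in F10, Lin28b at 232.7 and 214.0 CPM against 163.7 and 147.0 CPM. Beside these values, the summed level of the 12 neural progenitor markers was 500.8 and 629.5 CPM in F10 and 127.6 and 92.3 CPM in F6, while over all NPC day 6 libraries it ran from 92.3 to 629.5 CPM. The summed level of the 10 feeder fibroblast markers was 156.3 and 240.8 CPM in F10 and 35.97 and 40.2 CPM in F6, over a range of 22.3 to 240.8 CPM, and that of the 15 naive genes was 584.9 and 515.9 against 1302 and 1336 CPM. The part of these other cells in the levels of the members was not tested.

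**Figure D3:**
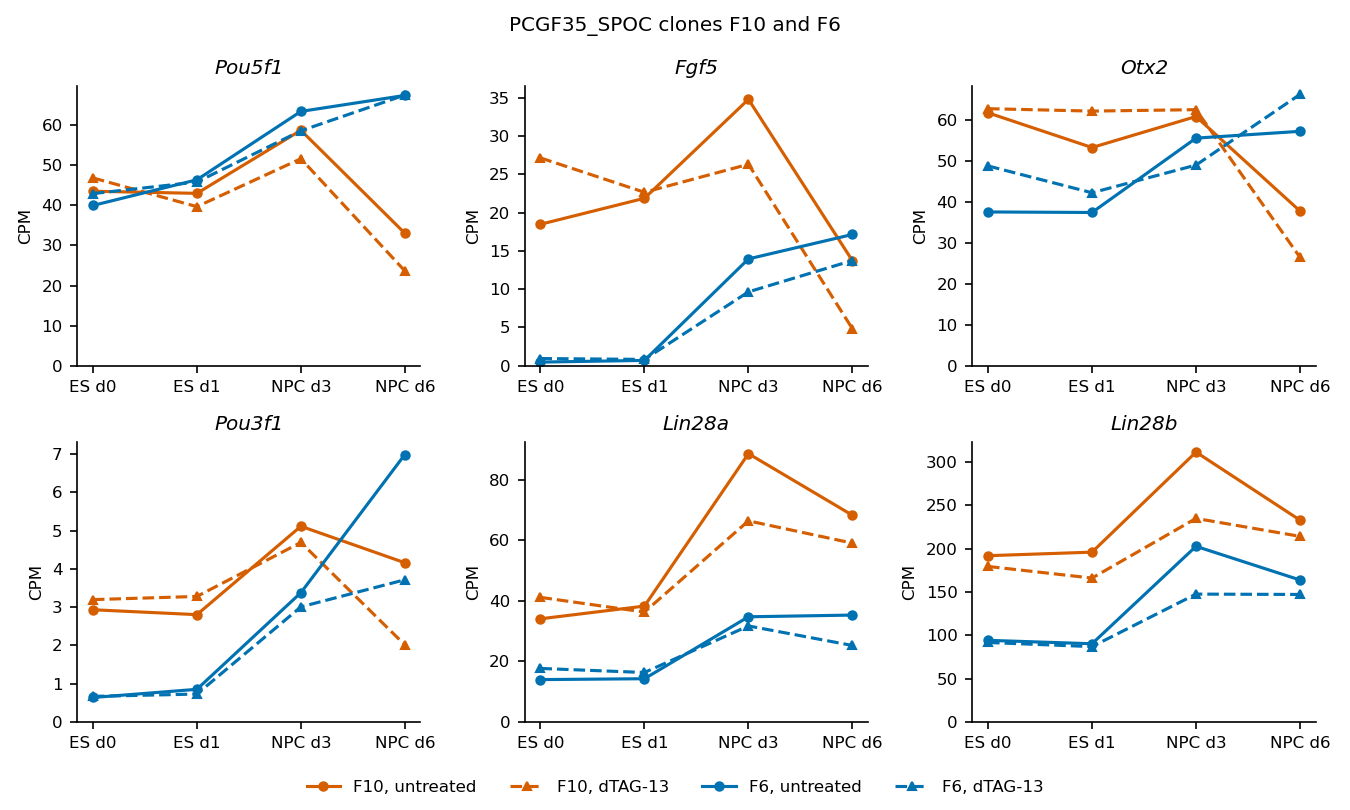
Level of the 6 measured members in clones F10 and F6 of PCGF35_SPOC, in CPM on a linear axis from 0, at the 4 stages, with solid lines for untreated and dashed lines for dTAG-13 libraries. F10 holds Fgf5 at 18.5 to 27.2 CPM in ES cells where F6 holds 0.479 to 0.945 CPM, and at NPC day 6 Pou5f1 is at 23.6 and 33.0 CPM in F10 and at 67.4 and 67.5 CPM in F6.

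The SPOC mutation was compared with its parent in 3 backgrounds in NPC conditions: SPOC against WT, PCGF35_SPOC_ctrl against PCGF35_ctrl, and DelPID_SPOC against DelPID. By the methods, SPOC and DelPID_SPOC clones were differentiated alongside their parental lines, but the labels do not tie a clone to a parental replicate, so these fits treat the libraries as independent. At NPC day 3 edgeR called 0 of 6 members (0 of 6 at an unadjusted p under 0.05, 0 of 6 by DESeq2), where 1.87% of all genes passed. At NPC day 6 edgeR and DESeq2 called 0 of 6, where 1.11% of all genes passed in edgeR. By edgeR 1 of 6, Lin28b, had an unadjusted p under 0.05, as had 2398 of the 16227 genes tested. Lin28b at NPC day 6 was at 221.1 and 252.7 CPM in WT and at 158.0 and 149.4 CPM in SPOC. It was at 355.1 and 207.8 CPM in DelPID and at 198.2 and 140.3 CPM in DelPID_SPOC. In PCGF35_ctrl it was at 227.6 and 248.3 CPM, and in PCGF35_SPOC_ctrl at 232.7 CPM in F10 and 163.7 CPM in F6. The mutant libraries were thus below the parental ones without overlap in the WT and DelPID backgrounds and overlapped in the PCGF35 background. How many of all genes separate in this way was not counted.

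The mean log2 difference of Lin28b between mutant and parent at NPC day 6 was −0.54 (SE 0.20, 95% interval −0.93 to −0.14, adjusted p = 0.177). By background it was −0.62, −0.26 and −0.72 for WT, PCGF35 and DelPID. Without clone F10, an exclusion added after seeing the data, edgeR called it, at −0.63 (SE 0.14). The mutant side of the PCGF35 background was then F6 alone. In that fit 2091 of 16475 genes passed (12.7%), with 6.49% of all genes lower in the mutants, against 180 genes with all libraries. Over the 18 alternatives run, the adjusted p of Lin28b ran from 0.00203 to 0.594. At NPC day 3 the difference was −0.26 (adjusted p = 0.603). For the other members at NPC day 6 the log2 difference was 0.26 for Pou5f1 (95% interval −0.10 to 0.63), −0.06 for Fgf5 (−1.55 to 1.44), 0.16 for Otx2 (−0.43 to 0.74), −0.18 for Pou3f1 (−0.88 to 0.52) and −0.32 for Lin28a (−0.96 to 0.32). The interval of Fgf5 was the widest of the 6. The change of the SPOC effect between the NPC days, tested as an interaction, was called in 0 of 6 members and in 0% of all genes by edgeR, where 0 of 6 members and 510 genes had an unadjusted p under 0.05 and DESeq2 called 0 genes.

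In ES cells only the PCGF35 background held both mutant and parent, and all of its mutant values come from F10 and F6. edgeR called 0 of 6 members (0 of 6 at an unadjusted p under 0.05, 0 of 6 by DESeq2), where 0.425% of all genes passed. The sign of the log2 difference of Fgf5 turned on 1 clone: it was 1.64 (SE 0.93, adjusted p = 0.382) with both clones and −2.48 (SE 1.16, adjusted p = 0.157) without F10. Pou3f1 moved from 0.07 to −1.19 and Lin28b from 0.12 to −0.51 in the same way. Pou5f1 was at −0.42 with and without F10.

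Degradation of PCGF3 and PCGF5 by dTAG-13, compared with untreated cells of PCGF35 and PCGF35_SPOC, called none of the members at any stage. Over ES days, NPC day 3, NPC day 6 and the interaction with the SPOC mutation at NPC day 6, edgeR called 0 of 6 members and 0% of all genes, and 0 of 6 members had an unadjusted p under 0.05. The number of genes with an unadjusted p under 0.05 was 297, 301, 856 and 419 in that order, and DESeq2 called 0, 0, 2 and 0 genes, none of them a member. Lin28b at NPC day 3 was at 292.6 and 280.1 CPM in PCGF35_ctrl and at 231.1 and 199.9 CPM in PCGF35_dTAG. In PCGF35_SPOC it was at 311.2 and 202.5 CPM untreated and at 234.7 and 147.4 CPM with dTAG-13, for F10 and F6. Each treated library was thus below the untreated library of the same clone or number, and the mean log2 difference was −0.42 (SE 0.24, 95% interval −0.90 to 0.07, adjusted p = 1). At NPC day 6 the log2 difference of Pou3f1 was −0.60 (95% interval −1.35 to 0.15, adjusted p = 0.943).

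Treated and untreated cells were cultured in parallel, so these libraries were also compared in pairs. The treated library was the lower in 4 of 4 pairs for Lin28b and Lin28a at both NPC days, for Pou3f1 at NPC day 6 and for Fgf5 and Pou5f1 at NPC day 3. In ES cells it was the lower in 4 of 4 pairs for Lin28b and Pou5f1 at day 1. It was the higher in 4 of 4 for Fgf5 at ES day 1 and for Otx2 at ES day 0. The share of all genes with such pairs was not counted. Lin28b was at 0.714 to 0.790 times its untreated level at NPC day 3 and at 0.655 to 0.920 times at NPC day 6. Pou3f1 at NPC day 6 was at 0.484 to 0.864 times its untreated level. With the clone or number as a block, edgeR called none of the members. The log2 difference of Lin28b was then −0.42 at NPC day 3 (SE 0.09, adjusted p = 0.0682) and −0.31 at NPC day 6 (SE 0.09, adjusted p = 0.0928). That of Lin28a was −0.40 (adjusted p = 0.551) and −0.37 (adjusted p = 0.296), and that of Pou3f1 at NPC day 6 was −0.61 (adjusted p = 0.449). With the block 0.0678% of all genes passed at NPC day 3 and 1.49% at NPC day 6.

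Reads over sites that differ between 129S and Cast were deposited separately for each allele, and the Dom share is the percentage of the allelic fragments of a gene that came from the 129S allele. Over libraries with at least 10 allelic fragments, its median was 56.1% for Pou5f1 (40.0 to 68.97%, 57 libraries), 49.2% for Fgf5 (53 libraries), 38.2% for Otx2 (25.7 to 73.1%, 58 libraries), 44.3% for Lin28a and 42.4% for Lin28b (58 libraries each). Pou3f1 reached that minimum in 1 library. The median number of allelic fragments per library was 129 for Pou5f1, 130 for Otx2, 193 for Lin28a and 1346 for Lin28b, so that Lin28b is the member with the finest resolution.

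The Dom share of Lin28b was higher in NPC than in ES libraries. It had a median of 38.6% at ES day 0 (30.1 to 45.9%), 36.9% at ES day 1 (27.7 to 45.8%), 45.2% at NPC day 3 (38.02 to 49.1%) and 46.3% at NPC day 6 (37.4 to 57.2%). In the 12 pairs of the same clone or replicate number, the share changed by 8.67 percentage points on average from ES day 0 to NPC day 6 (SD 5.23) and was higher in 11. H1 was the exception, at 40.5% and 37.4%. The mean change was larger than that of 98.8% of the 7561 autosomal genes with at least 50 allelic fragments in each of these libraries, whose 5th and 95th percentiles were −4.75 and 4.55 points. Of those genes 4.81% were higher in at least 11 of 12 pairs. Both alleles rose: the median fold of the depth-scaled Dom count was 1.82 (1.18 to 2.51) and that of the Cast count 1.30 (0.898 to 1.47). Lin28a, the only other member with enough allelic fragments, changed by 1.19 points (SD 6.23) and was higher in 7 of 12 pairs.

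**Figure D4:**
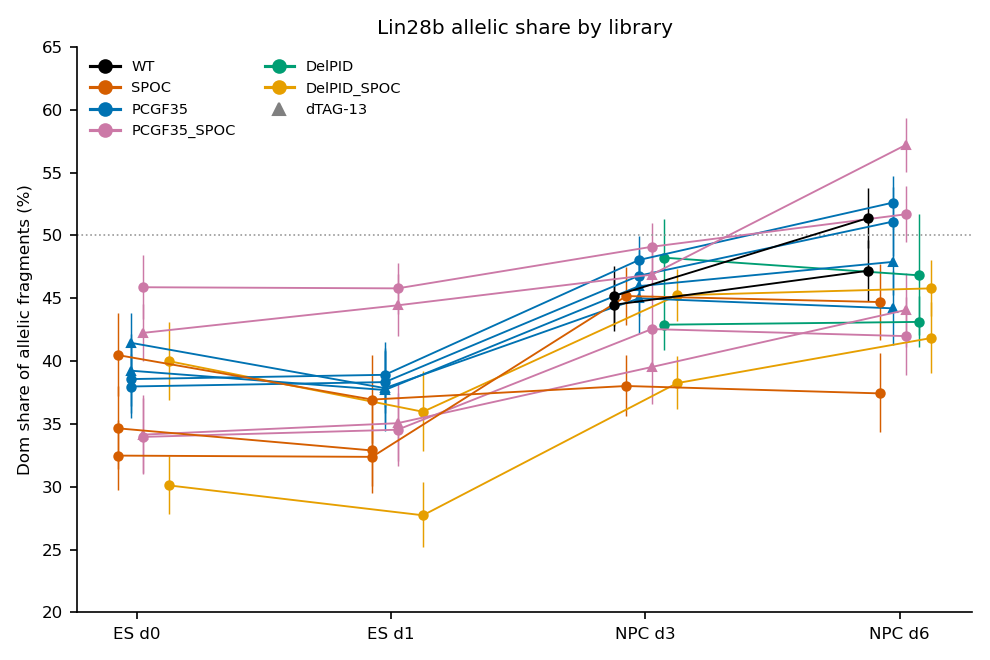
Share of the allelic fragments of Lin28b that came from the Dom (129S) allele, in percent, in each of the 58 libraries by stage, with a dotted line at 50% and the axis cut to 20 to 65%. The stage medians are 38.6, 36.9, 45.2 and 46.3%.

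The genes most like each member were sought by Pearson correlation of log2 CPM over the 28 group means among 13898 genes, as a description with no test, since the group means share lines, media and clones. For Fgf5 these were Vrtn (r = 0.985), Zfp385b (0.973) and Grm6 (0.971), and for Lin28a they were Gpc5 (0.971), Hecw1 (0.966) and Zfp385b (0.963). For Lin28b they were Arhgap24 (0.942), Scn9a (0.939) and Rian (0.936). Pou3f1 was closest to Zfp687 (0.893), Zfp651 (0.890) and Rgp1 (0.888), Otx2 to Mto1 (0.873), Nvl (0.862) and Boll (0.848), and Pou5f1 to Imp4 (0.841), Mycn (0.833) and Atp5j2 (0.825). Among the members themselves, Fgf5 and Lin28a had an r of 0.962, Pou3f1 and Lin28a 0.881, Fgf5 and Lin28b 0.854, Otx2 and Pou3f1 0.242 and Pou5f1 and Otx2 0.146.

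The other genes of the same states moved as follows from ES day 0 to NPC day 3. Of 15 naive pluripotency genes, 13 fell and 2 rose, with a median log2 fold change of −0.83, and Tbx3, a T-box factor of the naive network, fell by 2.36 on the log2 scale (edgeR adjusted p = 1.47e-09). Of 19 other formative genes tested, 8 rose and 3 fell (median 0.34). Dnmt3b, a de novo DNA methyltransferase, rose by 1.97 (adjusted p = 5.76e-09) and Lefty2, an inhibitor of NODAL signalling, fell by 1.23 (adjusted p = 0.000109). Of 13 genes around LIN28 and let-7, 8 rose and 4 fell (median 0.18), with the RNA-binding protein genes Igf2bp3 at 0.96 (adjusted p = 0.000222) and Igf2bp2 at −0.48 (adjusted p = 0.000332). Of 7 POU and SOX relatives tested, Pou2f2 rose by 1.10 (adjusted p = 0.000156) and Sox2ot fell. The counts stand against the 26.8% and 29.6% of all genes that rose and fell.

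Cell type markers moved beside them. From ES day 0 to NPC day 3, 2 of 8 neural progenitor markers tested rose and 1 fell, 0 of 8 mesendoderm and endoderm markers rose and 3 fell, and 1 of 9 feeder fibroblast markers rose and 2 fell. From NPC day 3 to NPC day 6, 4 of the 8 neural progenitor markers rose and none fell, with Nes at 1.60 on the log2 scale (edgeR adjusted p = 0.00280), 5 of the 8 mesendoderm and endoderm markers rose, and 1 of the 9 feeder markers rose and 1 fell. The summed level of the neural markers had a median of 76.5 CPM at ES day 0 and 300.4 CPM at NPC day 6, and that of the feeder markers 48.5 and 50.4 CPM. In the same interval 3 of the naive genes fell and none rose, Zfp42, the zinc-finger gene also called Rex1, by 1.02 on the log2 scale (adjusted p = 2.87e-05). Of the formative genes 2 rose and 6 fell. Of the LIN28 and let-7 genes 2 rose and 2 fell, with Arid3a, a DNA-binding factor and target of let-7, at 0.85 (adjusted p = 8.01e-05). Of the POU and SOX relatives none rose and 2 fell. Without F10 the neural markers that rose from NPC day 3 to NPC day 6 numbered 2 of 7, the mesendoderm and endoderm markers 3 of 10, and none of the 9 feeder markers was called. The counts between the NPC days stand against the 10.5% of all genes that rose and the 10.7% that fell, and against 5.80% and 6.30% in the fit without F10.

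The SPOC mutation at NPC day 6 shows how far these lists turn on 1 clone. With all libraries 1 of 15 naive genes (Zfp42) and 1 of 7 POU and SOX relatives (Sox21) were higher in the mutants, and none of the LIN28 and let-7, neural, mesendoderm and feeder genes was called. Zfp42 kept its call in 8 of 18 alternatives and Sox21 in 5 of 18, with the highest adjusted p, 0.264 and 0.367 by edgeR, without F6 ctrl at NPC day 6. Without F10, 8 of 15 naive genes were higher and none lower. In that fit 1 of 7 neural markers was higher and 2 were lower, 4 of 10 mesendoderm and endoderm markers and 6 of 9 feeder markers were lower, and 1 of 13 LIN28 and let-7 genes was higher and 3 were lower. Of all genes tested without F10, 6.20% were higher and 6.49% lower in the mutants, against 1.11% called in either direction with all libraries. The call of Lin28b without F10 stands beside these lower marker levels in the mutants, whose part in it was not tested.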

How the data were processed

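Chromatin-associated RNA was sequenced in 58 libraries, and the deposited tables give fragment counts per gene. According to the methods of the study, the authors removed ribosomal reads with Bowtie2 (2.3.2), aligned to an mm10 genome masked at strain variants with STAR (2.4.2a), kept unique alignments with at most 4 mismatches, split reads by allele with SNPsplit and counted strand-specific fragments over whole gene spans, introns included, with featureCounts. By default that tool leaves out fragments that overlap more than 1 gene, which the methods do not state. The total count and the counts of the Cast and Dom alleles were used as deposited, with no normalization by the authors. Tool versions come from the submitters' processing notes.

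Genes were filtered with filterByExpr (16227 tested), scaled by TMM and tested with edgeR 4.0.16 (quasi-likelihood, 1 mean per group over all 58 libraries, Benjamini-Hochberg adjustment over all genes tested, threshold 0.05). Every adjusted p is from this fit unless another tool or setting is named. SE is the log2 fold change divided by the square root of F, and fold changes use a prior count of 0.125. Comparisons between stages are means over the 6 arms with ES libraries, or over 8 arms between the NPC days, with ctrl and dTAG-13 of a line as separate arms. DESeq2 1.42.0 (R 4.3.3), DESeq2 size factors, no filter, the block, only the libraries of a contrast, no shallow libraries, no clone C11 and each library left out were alternatives, and leaving out clone F10 was added after seeing the data. Scripts were tested on simulated data. The members and gene lists were chosen with earlier results of these data known. Named besides the members are the 3 genes most correlated with each and, per list and comparison, called genes with the largest rise or fall. Results of some genes that this rule names are not reported here. The lists were naive pluripotency, formative, LIN28 and let-7, POU and SOX relatives, and neural progenitor, mesendoderm and endoderm, and feeder fibroblast markers.

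Clones tie libraries of the mutant lines by title. Same-clone deviations from the group means correlated at 0.220 or more in PCGF35_SPOC and 0.337 or more in DelPID_SPOC, and at −0.0947 or more in SPOC. WT, DelPID and PCGF35 share only numbers, with correlations of 0.657, 0.575 and at least −0.0158. Totals of 2292261 to 30005305 counted fragments per library set the precision, which is lowest for Pou3f1 and for Fgf5 in ES cells. No interval of counting error was used.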

Additional observations from a re-analysis of the deposited data

Results flagged for a closer look

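In 4 gene and stage combinations, the groups compared did not overlap in some arm or background, and did not overlap in the opposite direction in another. Such opposite separation was looked for in the members only, over all arms and backgrounds. The share of all genes that show it was not counted, and groups of so few libraries can separate fully by chance. None of the differences between arms or backgrounds given here was tested.

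For Pou5f1 the log2 change from NPC day 3 to NPC day 6 was −0.20 in PCGF35_ctrl and 0.16 in PCGF35_dTAG, a difference of −0.356, and it was 0.38 in DelPID_SPOC, a difference of −0.580 between PCGF35_ctrl and DelPID_SPOC. For Otx2 the same change was 0.09 in SPOC and −0.57 in PCGF35_ctrl, a difference of 0.664.

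For Pou3f1 the log2 difference between SPOC mutant and parent at NPC day 3 was −0.97 for SPOC against WT and 0.76 for DelPID_SPOC against DelPID, which are −1.74 apart. At NPC day 6 it was −1.26 and 1.23, which are −2.50 apart. Pou3f1 was at 6.08 and 3.12 CPM in WT and at 2.45 and 1.34 CPM in SPOC at that day, and at 3.03 and 1.89 CPM in DelPID and 5.58 and 4.14 CPM in DelPID_SPOC, and the first DelPID replicate rests on 6 fragments.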

How the results depend on the processing

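The calls of Fgf5, Pou3f1, Lin28a and Lin28b from ES day 0 to NPC day 3 and to NPC day 6 held in 32 of 32 alternatives each. Over the 12 comparisons the mean changes of the members gave 1674 values under alternatives, of which 1659 kept their direction or stayed uncalled, 15 gained a call, 0 lost one and 0 reversed while called. In single arms and backgrounds 947 of 990 values kept their side, 25 lost a call and 18 gained one. Leaving out 1 library gave 4 to 5 members called in both comparisons with ES day 0 and 0 in the others. From NPC day 3 to NPC day 6, 1 member (Lin28b) was called with the replicate block and 0 without it. Under the SPOC mutation at NPC day 6, 1 member (Lin28b) was called without clone F10 and 0 with it. The block changed no other call of a member except those of Pou5f1, and could not be set for the SPOC comparisons: SPOC and DelPID_SPOC clones were differentiated alongside their parents, but the labels do not say which clone went with which parental replicate, so these fits leave a shared experiment out of account. The stricter minimum of 50 allelic fragments moved no median share of a member by more than its spread.

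Counts over all genes moved by over 1.5 times in these cases. From ES day 0 to ES day 1, 19 genes were called, with 36 by DESeq2, 121 with the block, 12 without C11 and 34 with only the libraries of the contrast. From NPC day 3 to NPC day 6 it was 3444, with 5643 with the block and 1993 without F10. For the SPOC mutation it was 304 at NPC day 3, with 122 without the shallow libraries and 670 without F10. It was 180 at NPC day 6, with 489 by DESeq2, 78 without the shallow libraries, 8 with only the libraries of the contrast and 2091 without F10, and 69 in ES cells, with 148, 0 by only those libraries and 1924 without F10. Its interaction with day went from 0 to 9 without F10. For dTAG-13 the counts of 0 became 2, 11, 242 and 1 with the block (ES, NPC day 3, NPC day 6, interaction) and 2 at NPC day 6 by DESeq2 or without F10. Leaving out 1 library gave 10 to 22 genes from ES day 0 to day 1, 2277 to 4485 from NPC day 3 to day 6, 71 to 344 and 26 to 1083 for the SPOC mutation at NPC day 3 and day 6, 10 to 198 in ES cells, 0 to 25 for dTAG-13 at NPC day 6 and 0 to 227 for its interaction with SPOC. The cause was not tested. Depth limits Pou3f1, with 6 to 110 fragments, and Fgf5 in ES cells.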
